A study of Mus musculus with 6 samples.

Results

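The growth factor genes Vegfa, Pdgfa, Pdgfb, Hbegf, Igf1, Tgfb1, Gdf15, Inhba, Osm and Hgf were read in mouse primary peritoneal macrophages exposed to oxidised low-density lipoprotein (oxLDL). They were chosen by gene name, and all 10 were found among the 27240 genes of the deposited table, 1 row each. The compared groups were 3 knockout libraries with oxLDL (KO) and 3 wild-type libraries with oxLDL (WT). The series title names DCLK1, a doublecortin-family kinase, and the kinase IKKβ, which activates the transcription factor NF-κB. The sample labels name neither the deleted gene nor the method of deletion. Nothing in them ties a replicate to its own animal or culture, so p-values here reflect the library-to-library spread, which may be technical. Both genotypes had received oxLDL, and no untreated cells are compared here.

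Macrophages release growth factors that act on neighbouring endothelial, smooth muscle, epithelial and fibroblast cells, and in atherosclerotic plaques they are a known source of several of them. Most are made as precursors and are held back or released by other proteins. Transforming growth factor β1 leaves the cell bound to its own propeptide, heparin-binding EGF-like growth factor is shed from the cell surface by proteases, and hepatocyte growth factor is cleaved from a single chain to become active. The transcript levels described here do not show how much active protein was released.

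Total counts were between 72559141 and 74172804 in KO libraries and between 68053008 and 79090732 in WT libraries. Levels between libraries are given in CPM, that is counts divided by TMM-scaled library sizes from edgeR. There 1 count equalled 0.0127 to 0.0147 CPM. Dclk1 had 415, 431 and 377 counts in KO libraries and 494, 498 and 584 counts in WT libraries. Its KO level was 77.6% of its WT level, with no overlap between groups (exact permutation p = 0.1, edgeR adjusted p = 0.332). No call was made, so Dclk1 checks the genotype labels only weakly. On the first principal component of log2 CPM, which held 25.9% of the variance, KO libraries lay between 10.9 and 37.3. WT replicate 1 lay farthest from them at -60.7, beyond the other WT libraries at -16.2 and -5.94. Of 12 macrophage markers, 9 were above 15 CPM in every library, with Cd68 between 1957 and 2038 CPM in KO libraries and between 1935 and 2081 CPM in WT libraries. The markers of resident peritoneal macrophages in that list, Gata6, Timd4 and Icam2, were low, between 0.615 and 2.58 CPM in KO libraries and between 0.868 and 2.82 CPM in WT libraries. Lyz2, the macrophage lysozyme gene, fell to between 7920 and 8001 CPM in KO libraries, against 15672 to 16973 CPM in WT libraries (log2 fold change -1.04, SE 0.0266, edgeR adjusted p = 6.47e-06, 4.96e-06 to 0.0822 over alternatives other than DESeq2). It was the 1 marker of the 12 called, and their median was -0.05, with 4 above and 8 below 0. Groups also did not overlap for Itgam, an integrin gene of myeloid cells, at 417 to 599 CPM in KO and 232 to 415 CPM in WT libraries (fold 1.57, 95% interval 1.12 to 2.22, edgeR adjusted p = 0.344), for Csf1r (lower in KO, edgeR adjusted p = 0.394) and for Spi1 (higher in KO, edgeR adjusted p = 0.850). These 3 were chosen after their values were seen. With Lyz2, 2 of the 12 markers were higher and 2 lower in every KO library, against 8.68% and 8.89% of all genes.

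Promoter sequence was looked up because the study concerns a kinase upstream of NF-κB. Of the 10 genes, 7 matched by symbol in the RefSeq promoter table (GRCm38.p6), with 11 annotated start sites. The 250 bases before each start were searched on both strands for the NF-κB consensus, the AP-1 site TGANTCA, the cyclic AMP response element TGACGTCA, the hypoxia response core ACGTG and the TATA box TATAAA. Shown are the windows of Inhba (chr13:16011601-16011850, plus strand), whose transcript was lower in every KO library, and of the 3 most abundant genes. These are Gdf15 (chr8:70632457-70632706, minus strand), Tgfb1 (chr7:25686752-25687001, plus strand) and Vegfa (chr17:46032378-46032627, minus strand). Each is written 5′ to 3′ and ends at the base before the start site, and capitals mark motif matches.
Inhba: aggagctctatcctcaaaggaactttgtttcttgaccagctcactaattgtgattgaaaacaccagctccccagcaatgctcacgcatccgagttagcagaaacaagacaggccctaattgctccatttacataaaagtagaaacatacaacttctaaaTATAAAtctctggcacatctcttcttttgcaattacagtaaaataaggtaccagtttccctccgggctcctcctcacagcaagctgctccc
Gdf15: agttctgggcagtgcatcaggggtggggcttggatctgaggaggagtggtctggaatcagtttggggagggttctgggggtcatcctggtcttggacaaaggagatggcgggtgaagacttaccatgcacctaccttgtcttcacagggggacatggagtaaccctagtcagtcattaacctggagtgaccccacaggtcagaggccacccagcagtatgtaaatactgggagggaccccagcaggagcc
Tgfb1: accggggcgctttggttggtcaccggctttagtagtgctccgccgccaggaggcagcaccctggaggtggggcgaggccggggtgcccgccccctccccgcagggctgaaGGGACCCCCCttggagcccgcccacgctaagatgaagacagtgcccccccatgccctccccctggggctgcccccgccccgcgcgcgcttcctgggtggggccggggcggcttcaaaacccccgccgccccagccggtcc
Vegfa: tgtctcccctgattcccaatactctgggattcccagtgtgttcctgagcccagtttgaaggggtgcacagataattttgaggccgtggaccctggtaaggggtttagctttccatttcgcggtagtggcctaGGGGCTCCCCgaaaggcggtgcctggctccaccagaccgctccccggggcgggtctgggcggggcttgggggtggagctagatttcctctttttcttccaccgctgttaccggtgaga
The capitals in Inhba are a TATAAA match, a motif that 12.4% of all 32851 windows of this length hold. The capitals in Tgfb1 and in Vegfa are 1 NF-κB consensus match each, against 7.25% of all windows, and the matches overlap no other motif searched. The Gdf15 window shown held no match to the 5 motifs. G and C made up 43.2% of the Inhba window, 56.4% of the Gdf15 window, 75.2% of the Tgfb1 window and 59.2% of the Vegfa window. The Igf1 window (chr10:87860861-87861110, plus strand) lies between the deposited start and end of Igf1 and is not printed. It held 1 AP-1 match, against 6.75% of all windows. Of the remaining 6 windows, 1 of Pdgfa held an NF-κB consensus match, and the second windows of Vegfa and Gdf15 held 1 and 2 ACGTG matches, against 16.6% of all windows. No window held TGACGTCA, which 1.55% of all windows hold. A match is a description of the letters, not a binding site.

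In the deposited FPKM, which the authors scaled for gene length, the 10 genes covered a wide range of levels. Averaged over the 6 libraries, Gdf15 was the most abundant at 73.5 FPKM, followed by Tgfb1 at 49.5, Vegfa at 14.1 and Igf1 at 9.70 FPKM. For these 4 genes no library overlapped any library of the next gene in the order. Inhba at 5.29 FPKM and Osm at 3.96 FPKM overlapped each other over the libraries. Pdgfa stood apart from its neighbours at 2.31 FPKM. Hgf at 0.561, Pdgfb at 0.367 and Hbegf at 0.337 FPKM closed the order, and each overlapped the next.

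**Figure D1:**
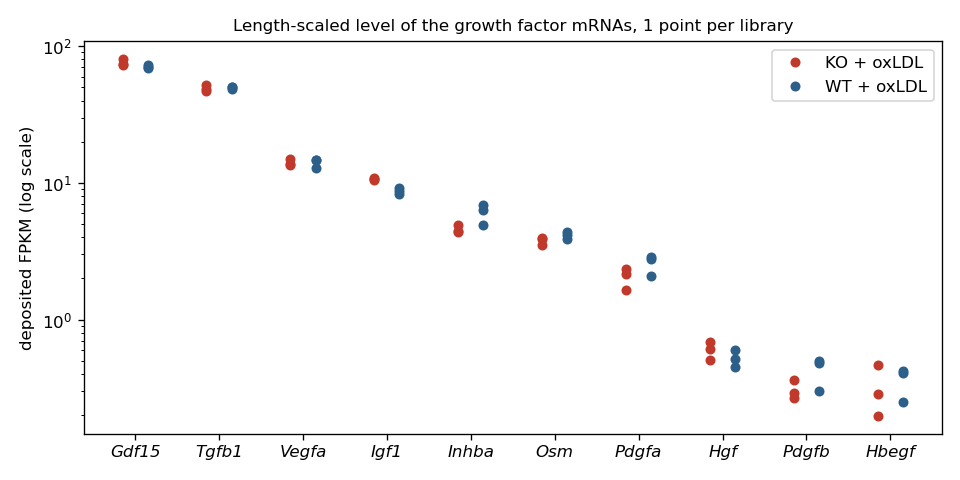
Deposited FPKM (log axis) of the 10 growth factor genes, ordered by their mean over 6 libraries, with 1 point per library, KO left and WT right within each gene. The order runs from Gdf15 at a mean of 73.5 FPKM down to Hbegf at 0.337 FPKM, and on this scale the genotypes do not overlap for Gdf15 and Igf1, both higher in KO, and for Inhba, lower in KO.

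Of the 16239 genes that passed the filter on low counts, 0.0677% were called between KO and WT by edgeR's quasi-likelihood test at an adjusted p of 0.05. Of these, 4 were higher (0.0246% of genes tested) and 7 lower (0.0431%) in KO. All 10 growth factor genes passed the filter and none was called. At an unadjusted p under 0.05 there were 2, Igf1 and Inhba, against 10.4% of all genes tested. For the same 2 genes the KO and WT libraries did not overlap, against 17.6% of all genes, so the share of the 10 was near the background. The DESeq2 Wald test called 2 of the 10, Igf1 and Inhba, against 3.77% of the 12135 genes for which it gave an adjusted p, and the 3 limma fits called none. Over the 10 genes the median log2 fold change was -0.09, with 3 above and 7 below 0, against a median of -0.0019 over all genes. That median was -0.003 without KO replicate 1, -0.06 without WT replicate 2 and -0.12 without WT replicate 1. In limma it was -0.038 over all 10 genes with no filter. It was -0.025 over the 7 genes that passed the FPKM filter (at least 1 in at least 3 libraries). These alternatives were added after the data were seen. The count of 11 genes called by edgeR fell to 7 without WT replicate 1, and was 24 without WT replicate 2 and 35 without KO replicate 1.

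**Figure D2:**
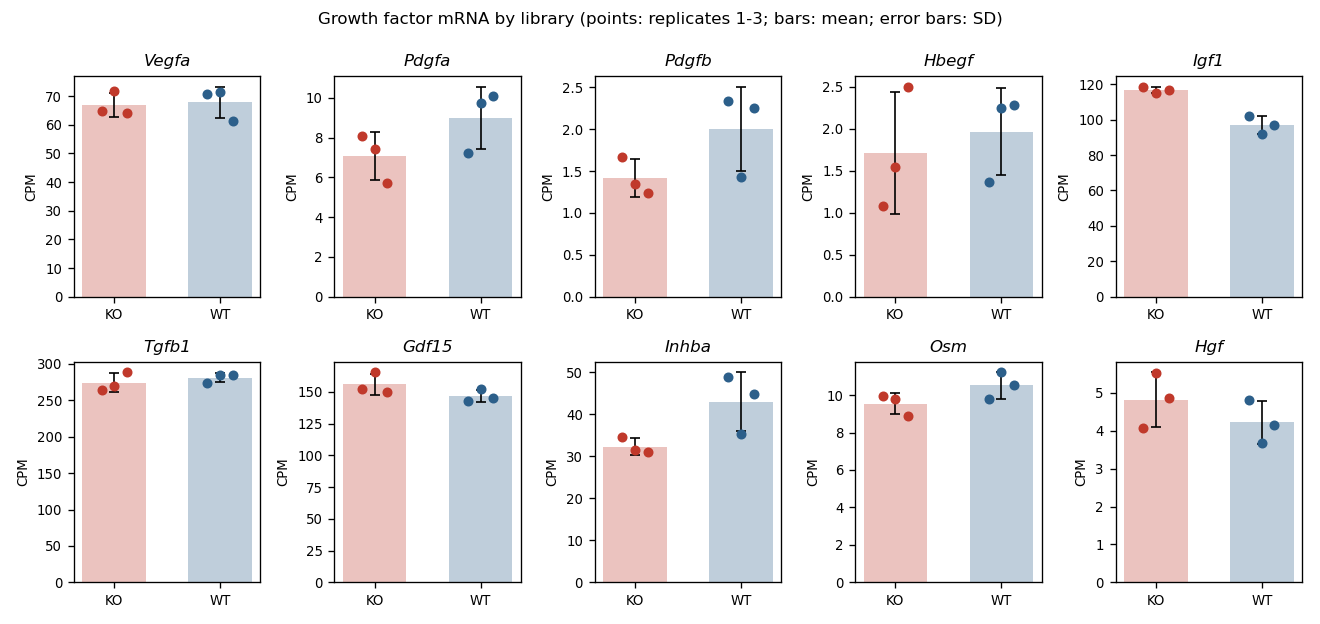
CPM of each growth factor gene in every library, with KO left and WT right in each panel, bars at the mean of 3 libraries, error bars of 1 SD and axes starting at 0. Points do not overlap between genotypes for Igf1, at 115 to 119 CPM in KO and 92.0 to 102 CPM in WT libraries, and for Inhba, at 30.9 to 34.6 CPM in KO and 35.3 to 48.9 CPM in WT libraries.

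Igf1 (ENSMUSG00000020053, chromosome 10, 87858265 to 87937042, plus strand, as deposited) encodes insulin-like growth factor 1, a ligand that promotes survival and growth through the receptor IGF1R and that tissue macrophages also make. It was at 119, 115 and 116 CPM in KO libraries, against 102, 92.0 and 97.1 CPM in WT libraries. Every KO library lay above every WT library, and the KO libraries were close together. The mean was 117 ± 1.84 CPM in KO and 97.0 ± 5.03 CPM in WT libraries (SD, n = 3 each). The fold was 1.20 (95% interval 1.11 to 1.31), or 0.27 on the log2 scale (SE 0.0508), and was not called (edgeR adjusted p = 0.118). By exact permutation of 3 against 3 libraries, two-sided, p was 0.1, the smallest value the design can give. DESeq2 gave an adjusted p = 0.000959, while the other alternatives gave 0.116 to 0.356, with log2 fold changes of 0.23 to 0.30.

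Inhba (ENSMUSG00000041324, chromosome 13, 16011851 to 16031621, plus strand) encodes the βA subunit, whose homodimer is activin A, a TGF-β family ligand. Its KO libraries held 34.6, 31.4 and 30.9 CPM, against 48.9, 35.3 and 44.8 CPM in WT libraries. The highest KO value and the lowest WT value lay close together, and the WT libraries were the more spread. The mean was 32.3 ± 1.97 CPM in KO and 43.0 ± 7.00 CPM in WT libraries (SD, n = 3 each), a fold of 0.751 (95% interval 0.618 to 0.912). The log2 fold change of -0.41 (SE 0.120) was not called (edgeR adjusted p = 0.273), and two-sided exact permutation gave p = 0.1. It was -0.31 without WT replicate 1 and -0.54 without WT replicate 2, the lowest WT library. DESeq2 gave an adjusted p = 0.0265, while the other alternatives gave 0.0967 to 0.555.

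The other TGF-β family ligands were the 2 most abundant growth factor genes. Tgfb1 (ENSMUSG00000002603, chromosome 7, 25687002 to 25705077, plus strand), whose product limits inflammation and drives matrix production, was at 264, 270 and 289 CPM in KO libraries, against 274, 285 and 284 CPM in WT libraries. The groups overlapped, with the highest and the lowest value both in KO libraries. The fold was 0.975 (95% interval 0.906 to 1.05, edgeR adjusted p = 0.841). Gdf15 (ENSMUSG00000038508, chromosome 8, 70629393 to 70632456, minus strand) encodes a stress-induced hormone that acts on a brainstem receptor. It was at 152, 166 and 150 CPM in KO libraries, against 143, 152 and 145 CPM in WT libraries. The lowest KO value lay just under the highest WT value in CPM, whereas in the deposited FPKM the groups did not overlap, at 73.3 to 80.6 FPKM in KO and 69.2 to 73.2 FPKM in WT libraries. The fold was 1.06 (95% interval 0.976 to 1.16, edgeR adjusted p = 0.631).

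Vegfa (ENSMUSG00000023951, chromosome 17, 46016993 to 46032369, minus strand) encodes vascular endothelial growth factor A, the main signal for new blood vessels and a transcript induced by low oxygen. It was at 64.9, 71.7 and 64.3 CPM in KO libraries, against 70.7, 71.4 and 61.5 CPM in WT libraries. Both groups covered nearly the same range. The fold was 0.987 (95% interval 0.873 to 1.12, edgeR adjusted p = 0.961).

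The platelet-derived growth factor chains, which attract and expand smooth muscle cells and fibroblasts, were low. Pdgfa (ENSMUSG00000025856, chromosome 5, 138976014 to 138997370, minus strand) was at 8.06, 7.42 and 5.73 CPM in KO libraries, against 7.22, 9.72 and 10.1 CPM in WT libraries. Only WT replicate 1 lay within the KO range. The fold was 0.785 (95% interval 0.586 to 1.05, edgeR adjusted p = 0.557). In GENCODE M21, 813 exonic bases of Pdgfa also belong to the antisense gene 6330403L08Rik, and 21.3% of the 50-base sequences of Pdgfa occur there. That gene held a mean of 1041 counts in KO and 1262 counts in WT libraries, more than Pdgfa itself. Whether counting used strand is unknown here, so the Pdgfa counts are uncertain. Pdgfb (ENSMUSG00000000489, chromosome 15, 79995874 to 80014977, minus strand) had 125, 98 and 91 counts in KO libraries, against 159, 106 and 177 counts in WT libraries. In CPM these were 1.67, 1.34 and 1.24 in KO and 2.34, 1.43 and 2.25 in WT libraries, with WT replicate 2 inside the KO range. The fold was 0.708 (95% interval 0.460 to 1.09, edgeR adjusted p = 0.575).

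Hbegf (ENSMUSG00000024486, chromosome 18, 36504927 to 36515805, minus strand) encodes heparin-binding EGF-like growth factor, a ligand of the EGF receptor. It was the least abundant gene per length, with 81, 113 and 183 counts in KO libraries, against 93, 167 and 179 counts in WT libraries. The CPM values were 1.08, 1.54 and 2.50 in KO and 1.37, 2.25 and 2.28 in WT libraries, and the KO libraries alone spanned the WT range. The fold was 0.870 with a wide 95% interval of 0.487 to 1.55 (edgeR adjusted p = 0.901). Osm (ENSMUSG00000058755, chromosome 11, 4236420 to 4241026, plus strand) encodes oncostatin M, a cytokine of the interleukin-6 family. It was at 9.95, 9.79 and 8.91 CPM in KO libraries, against 9.81, 11.2 and 10.5 CPM in WT libraries. The groups overlapped only through the highest KO and the lowest WT library (fold 0.908, 95% interval 0.771 to 1.07, edgeR adjusted p = 0.698).

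Hgf (ENSMUSG00000028864, chromosome 5, 16553495 to 16620152, plus strand) encodes hepatocyte growth factor, the ligand of MET. It was at 4.08, 5.52 and 4.88 CPM in KO libraries, against 4.82, 3.68 and 4.16 CPM in WT libraries. The groups overlapped, with the 2 highest values in KO libraries. The fold was 1.14 (95% interval 0.864 to 1.51, edgeR adjusted p = 0.767).

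**Figure D3:**
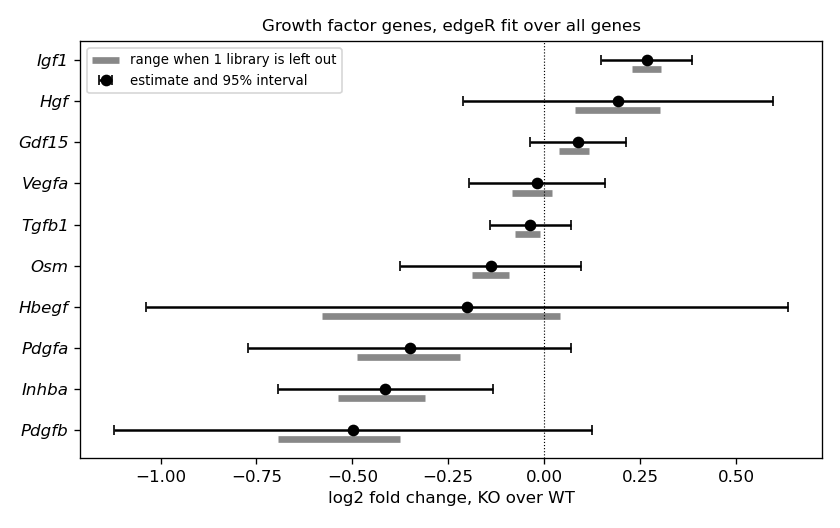
Log2 fold change of KO over WT for the 10 growth factor genes from the edgeR fit over all genes, with 95% intervals in black and the range over the 6 fits that leave out 1 library in grey. The unadjusted intervals of Igf1 (0.15 to 0.39) and Inhba (-0.69 to -0.13) lie to either side of 0 and the other 8 cross it, while the interval of Hbegf is the widest of the 10.

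Receptors for these ligands were present at widely different levels, and none of the 22 tested was called. Fitted values were above 0 for 8 and below 0 for 14 (median log2 -0.10, between -0.15 and -0.06 when 1 library was left out). In limma the median was -0.01 over the 12 receptors that passed the FPKM filter and -0.02 over 23 with no filter. Groups did not overlap for 4 receptors higher and 6 lower in KO, against 8.68% and 8.89% of all genes. At an unadjusted p under 0.05 there were 7, against 10.4% of all genes. The most abundant per length was Nrp2, a semaphorin and VEGF co-receptor, at 919, 914 and 901 CPM in KO libraries, against 1113, 1022 and 1083 CPM in WT libraries. Its log2 fold change was -0.24 (SE 0.0350, edgeR adjusted p = 0.076). The related co-receptor Nrp1 was at 357 to 365 CPM in KO and 323 to 356 CPM in WT libraries (edgeR adjusted p = 0.479). Kdr, the signalling receptor for VEGF-A, was at 17.2, 18.2 and 16.9 CPM in KO libraries, against 14.2, 12.7 and 14.2 CPM in WT libraries (log2 fold change 0.35, edgeR adjusted p = 0.176). Flt1, the other VEGF-A receptor, stayed under 0.5 CPM in every library.

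Met, the HGF receptor, was at 355, 350 and 362 CPM in KO libraries, against 422, 580 and 423 CPM in WT libraries. All KO values lay below all WT values, and WT replicate 2 stood highest (log2 fold change -0.42, SE 0.118, edgeR adjusted p = 0.265). Pdgfra, which binds the A and B chains of PDGF, was at 9.11, 10.7 and 10.7 CPM in KO libraries, against 15.3, 14.3 and 15.6 CPM in WT libraries. The groups were well apart (log2 fold change -0.57, SE 0.0984), but the difference was not called (edgeR adjusted p = 0.099). Pdgfrb was under 0.8 CPM in every library.

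Tgfbr2, which binds TGF-β1, was at 170, 157 and 165 CPM in KO libraries, against 138, 141 and 143 CPM in WT libraries (log2 fold change 0.22, edgeR adjusted p = 0.134). Its partner Tgfbr1 was at 176 to 210 CPM in KO and 188 to 191 CPM in WT libraries (edgeR adjusted p = 0.868). The accessory receptor Eng was at 14.1 to 19.3 CPM in KO and 22.4 to 24.0 CPM in WT libraries (edgeR adjusted p = 0.276). Of the activin receptors, Acvr1b was at 55.3 to 58.5 CPM in KO and 57.7 to 63.2 CPM in WT libraries, and Acvr2a at 13.1 to 15.3 CPM in KO and 13.5 to 13.8 CPM in WT libraries. Igf1r was at 11.8 to 15.7 CPM in KO and 10.8 to 11.5 CPM in WT libraries (edgeR adjusted p = 0.582). Egfr was at 3.57 to 4.90 CPM in KO and 4.41 to 6.08 CPM in WT libraries. Il6st, the signalling chain shared by the interleukin-6 family, was at 127 to 200 CPM in KO and 177 to 201 CPM in WT libraries, whereas Osmr stayed under 3.5 CPM in every library. Insr, the insulin receptor, was at 53.7 to 62.1 CPM in KO and 52.7 to 58.3 CPM in WT libraries (edgeR adjusted p = 0.926). Flt4, Erbb2, Tgfbr3, Acvr2b and Lifr stayed under 2.5 CPM in every library, and Acvr1c had too few counts to be tested. Gfral, the receptor for GDF15, and Erbb4 were looked up by symbol but not found among the genes read here, so they have no values.

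**Figure D4:**
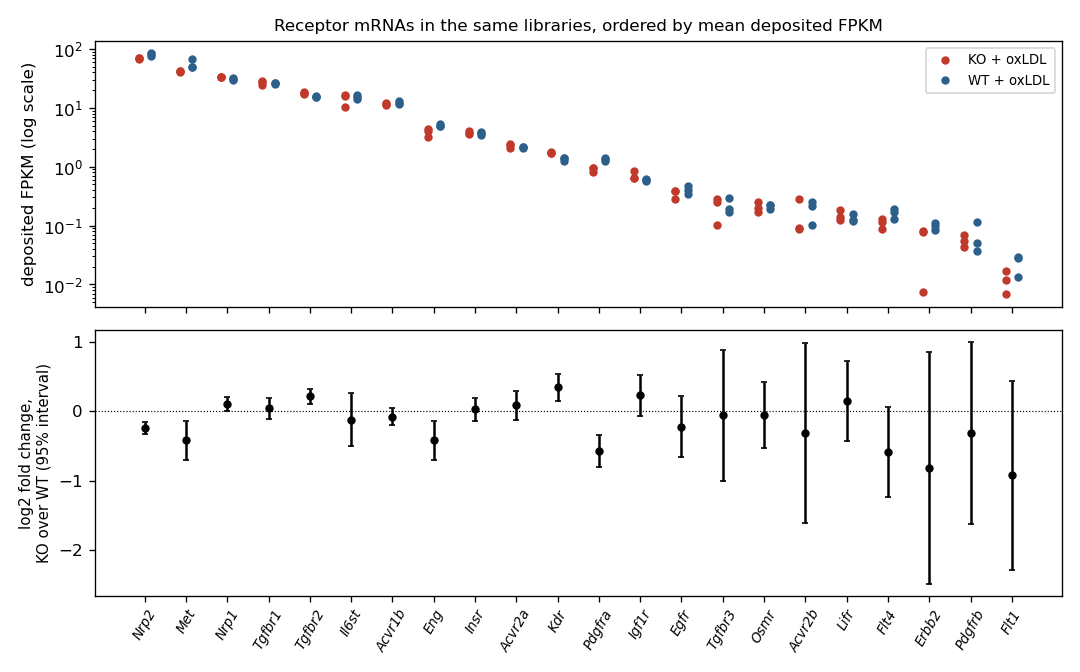
Upper panel: deposited FPKM (log axis) of the 22 tested receptor genes by library, KO left and WT right. Lower panel: log2 fold change of KO over WT with its 95% interval from the edgeR fit, where Nrp2, Met, Eng and Pdgfra lie below 0 and Kdr and Tgfbr2 above 0, none of them called over all genes.

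Among 34 genes for latency, binding and release of growth factors, 30 were tested and 1 was called. Plau, which encodes urokinase, a protease that activates plasminogen and can cleave pro-HGF, fell to 305, 316 and 297 CPM in KO libraries, against 408, 397 and 381 CPM in WT libraries. Its log2 fold change was -0.37 (SE 0.0418, edgeR adjusted p = 0.0495), and its adjusted p was between 0.0784 and 0.183 when any 1 library was left out (1.16e-09 with DESeq2, and not under 0.0501 in any other alternative). The list median was -0.14 (-0.22 without KO replicate 3 and -0.04 over 32 genes in limma with no filter), with 10 genes above and 20 below 0. Groups did not overlap for 4 genes higher and 9 lower in KO, against 8.68% and 8.89% of all genes. At an unadjusted p under 0.05 there were 9, against 10.4% of all genes. Chosen after their values were seen, Thbs1, which encodes a TGF-β-activating matrix protein, was at 581 to 616 CPM in KO and 491 to 505 CPM in WT libraries (edgeR adjusted p = 0.076). Adam17, the protease that sheds HB-EGF, was at 386 to 425 CPM in KO and 428 to 460 CPM in WT libraries (edgeR adjusted p = 0.303). Itgav, an integrin gene chosen in the same way, was at 69.6, 36.15 and 74.9 CPM in KO libraries, against 30.7 to 35.9 CPM in WT libraries. Its edgeR adjusted p was 0.2665. Of 22 other growth factor ligands, 18 were tested and none was called. Their median was -0.16, but -0.26 without WT replicate 1 and -0.39 over 22 genes with no filter, so it has no stable size. In limma on log2(FPKM + 1) it was 0.007 over the 4 genes that passed the FPKM filter, and -0.021 over 22 genes with no filter. Fits over different genes do not settle its direction. The most abundant were Grn (993 to 1429 CPM in KO and 975 to 1197 CPM in WT libraries), Vegfb (17.6 to 20.9 CPM in KO and 18.6 to 24.3 CPM in WT libraries) and Bmp2 (7.07 to 9.41 CPM in KO and 6.43 to 7.66 CPM in WT libraries).

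Genes that respond to or share control with these ligands gave no call either. For the 19 genes of SMAD signalling and feedback the median was -0.01 (-0.07 without KO replicate 2), 9 above 0 and 10 below, and Id2, Ski and Smurf1 were the most abundant. Smurf1, a ubiquitin ligase that removes TGF-β receptors, was at 99.8 to 105 CPM in KO and 108 to 116 CPM in WT libraries (edgeR adjusted p = 0.471). The 16 hypoxia genes, of which Vegfa is a classic companion, had a median of 0.02, which ranged from -0.01 without WT replicate 3 to 0.07 without KO replicate 2. Groups did not overlap for 4 of them, all higher in KO and none called, against 8.68% of all genes in that direction, and for none lower in KO. These were Epas1, Arnt, Bnip3 and Ndrg1, chosen after their values were seen, and Ndrg1, a stress- and hypoxia-induced gene, was at 26.9 to 29.3 CPM in KO and 21.3 to 22.9 CPM in WT libraries (log2 fold change 0.33, edgeR adjusted p = 0.131). Pgk1, a glycolytic enzyme gene, was at 419 to 440 CPM in KO and 412 to 427 CPM in WT libraries (edgeR adjusted p = 0.868), and Ldha and Hif1a overlapped too. The 12 integrated stress response genes, a programme that induces Gdf15, had a median of 0.02, which ranged from -0.01 without WT replicate 1 to 0.05 without KO replicate 3. Its factor Atf4 was at 485, 494 and 340 CPM in KO libraries, against 326, 352 and 489 CPM in WT libraries, with KO replicate 3 and WT replicate 3 each apart from their groups (edgeR adjusted p = 0.805). Atf3 was at 331 to 336 CPM in KO and 331 to 357 CPM in WT libraries (edgeR adjusted p = 0.864), and Ddit3 was at 87.8 to 94.9 CPM in KO and 76.6 to 86.1 CPM in WT libraries (edgeR adjusted p = 0.348). The 8 OSM and STAT3 response genes were each fitted below 0, none past the test. Their median was -0.16 and became -0.10 without WT replicate 1 or without KO replicate 3, and -0.25 without KO replicate 2. Groups did not overlap for 4 of the 8, all lower in KO, against 8.89% of all genes in that direction. At an unadjusted p under 0.05 there were 4, against 10.4% of all genes. Their most abundant members Jak1 and Il4ra overlapped between groups, and Pim1, a STAT-induced kinase gene, was at 103 to 119.6 CPM in KO and 120.1 to 129 CPM in WT libraries (edgeR adjusted p = 0.424). Bcl3 and Socs3, chosen after their values were seen, were also lower in every KO library (edgeR adjusted p = 0.1305 and 0.3068).

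Fibroblasts, platelets and lymphocytes also make some of these growth factors, so markers of other cells were read in the same libraries. The 14 fibroblast and mesothelial markers summed to 200 to 218 CPM in KO and 229 to 235 CPM in WT libraries, with 4 above and 10 below 0 and none called. Their most abundant members Pdpn, Sparc and Col1a2 overlapped between groups. The 10 T and NK cell markers, led by Trbc2, Nkg7 and Cd4, summed to 13.6 to 15.3 CPM in KO and 18.9 to 22.8 CPM in WT libraries. The 8 dendritic cell markers, led by Ccr7, Fscn1 and Clec9a, summed to 24.5 to 25.9 CPM in KO and 30.6 to 36.7 CPM in WT libraries. The 8 mast cell and basophil markers, led by Cma1, Cpa3 and Tpsb2, summed to 3.27 to 4.41 CPM in KO and 5.07 to 6.19 CPM in WT libraries. These 4 sums were lower in every KO library, as were Inhba, Met and Pdgfra, and their part in those results was not tested. Fitted values were below 0 for 7 of 8 tested T and NK cell, 5 of 7 dendritic cell and 5 of 6 mast cell and basophil markers. In these lists 5, 2 and 1 markers were lower in every KO library, as were 5 of the 14 fibroblast and mesothelial markers. Of all genes, 8.89% were lower in this way. Only 1 fibroblast or mesothelial marker was higher in every KO library. None of these marker genes was called, and none was at 0 in all libraries. In bulk samples, fewer cells of a type and less RNA per cell cannot be told apart. The 8 platelet markers summed to 106 to 110 CPM in KO and 95.8 to 101 CPM in WT libraries, nearly all of it Pf4 and Itgb3, followed by Treml1. This sum was higher in every KO library, as was Igf1, and its part in that result was not tested, while Ppbp, Gp9 and Gp6 stayed under 0.5 CPM. The 7 B cell markers, led by Cd22, Cd79a and Cd79b, overlapped between groups in their sum. Of these, 6 stayed under 1 CPM in every library, so the remaining marker makes up nearly all of the sum. Fitted values were above 0 for 5 of the 6 tested, with 1 higher and 0 lower in every KO library. The sum of the 7 neutrophil markers, led by S100a8, Mmp8 and Csf3r, overlapped too. Of the 4 tested, 2 were fitted above and 2 below 0, with 1 higher and 2 lower in every KO library. Of all genes, 8.68% were higher and 8.89% lower in this way. None of these markers was called, and Ly6g and Retnlg had 0 counts in all libraries.

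For the 3 most abundant growth factor genes, the genes with the most similar pattern were sought among 12129 others of at least 1 CPM on average. Likeness was the root mean square difference of centred log2 CPM over the 6 libraries. Nearest to Gdf15 were Nars, Pi4k2a and Vav3, at differences of 0.016 to 0.020, where Gdf15 itself ranged over 0.214. Nearest to Tgfb1 were Il4ra, Tbxas1 and Ppp6c, at 0.010 to 0.022 against a range of 0.131. Nearest to Vegfa were Cript, Scap and Exosc5, at 0.022 to 0.026 against a range of 0.222.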

How the data were processed

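Poly(A) RNA of peritoneal macrophages was read as paired ends, per the labels' protocols. The submitters' processing notes list HISAT2 2.0. How reads were counted, with which annotation and on which build, is not given in the labels or headers. The deposited table, per the file headers, holds whole-number counts and FPKM per gene, the latter scaled by the authors. Another 12 value columns belong to no sample listed for the 6 libraries and were left out. All 10 members have their GENCODE M21 coordinates.

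Genotype and replicate were taken from the sample titles. Counts were filtered by filterByExpr, scaled by TMM and tested two-sided with edgeR 4.0.16 (R 4.3.3) quasi-likelihood fits on genotype alone. Benjamini-Hochberg adjustment ran over all genes tested, with calls at 0.05. Intervals are at the 95% level and not adjusted. Chi-square divided by degrees of freedom was 39.0 to 46.1 for pairs of libraries within groups, so none was a duplicate. Alternatives were no filter, RLE size factors, DESeq2 1.42.0, limma 3.58.1 on log2(FPKM + 1) or log2(FPKM + 0.1), the replicate number as a block and each library left out.

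The members and companion lists were chosen with earlier results of these data known. Named were all members, their receptors, Dclk1 and, of each other list, called genes or else the 3 most abundant by FPKM; others are said to be chosen after their values were seen. For symbols with several IDs, the most counted ID was used. Alternatives for Plau and Lyz2 were chosen after seeing the data.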

Additional observations from a re-analysis of the deposited data

How the results depend on the processing

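The number of genes called by edgeR, 11, was 7 with no filter, 3 with the replicate block and 7 to 35 when 1 library was left out. It was 457 with DESeq2, and 3 with limma on log2(FPKM + 1) with no filter. Of the 10 growth factor genes 0 were called, except that DESeq2 called 2, Igf1 and Inhba. Of 124 log2 fold changes of the members under alternatives, 5 changed sign. Without 1 library that of Vegfa ranged from -0.085 to 0.019 and that of Hbegf from -0.580 to 0.042, and the cause was not tested. Pdgfb, Hbegf and Hgf were not tested by limma with the FPKM filter (at least 1 in at least 3 libraries). The correlation of deviations between same-numbered KO and WT libraries was 0.017 to 0.049, against -0.036 to 0.012 between differently numbered ones. These values were small, but each library correlated best with its own number. What same-numbered libraries share beyond the label was not tested. Plau, whose alternatives were chosen after seeing the data, was also called by DESeq2 and by no other alternative. Medians of the gene lists moved by at least the replicate spread in 37 of 206 alternatives, and the mast cell list had no value in limma with the FPKM filter. Hbegf and Pdgfb, with 81 to 183 counts a library, had the widest intervals, and what set their width was not tested.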

Other observations

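Igf2 encodes an insulin-like growth factor related to IGF1 and was chosen after its values were seen. It had 277, 401 and 388 counts in KO libraries, against 0, 20 and 281 counts in WT libraries. In CPM these were 3.70, 5.48 and 5.30 in KO libraries, against 0, 0.269 and 3.57 in WT libraries. WT replicate 3 lay close to KO replicate 1, and the other WT libraries were at or near 0. The fitted difference was not called (edgeR adjusted p = 0.649). Tgfb3, a TGF-β isoform also chosen after its values were seen, was at 0.868, 0.670 and 1.19 CPM in KO libraries, against 1.32, 1.87 and 1.45 CPM in WT libraries (edgeR adjusted p = 0.433).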
